A study of Mus with 5 samples.

Results

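The STAT family genes Stat2, Stat3, Stat4, Stat5a, Stat5b and Stat6 were examined as targets of RARα and BATF binding in mouse CD8 T cells. Their members here are the peaks whose deposited gene annotation names at least 1 of the 6 genes. Of 27480 peaks in the 4 lists, 30 qualified. For RARα these were 3 of 1172 control peaks and 0 of 597 peaks with RA. For BATF they were 18 of 15812 control peaks and 9 of 9899 peaks with RA. The RARα lists were called at a p-value cutoff of 0.001 and the BATF lists at 1e-05, so their peak numbers are not on 1 scale.

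Binding was mapped by chromatin immunoprecipitation and sequencing (ChIP-seq) in WT spleen CD8 T cells isolated as naïve cells. All groups received anti-CD3 and anti-CD28 antibodies together with IL-2 during 24 h of activation, then IL-2 alone (100 U/ml) during 24 h of rest, and lastly spent 1 h without RA (control) or with RA at 50 nM. RA (retinoic acid) is the ligand of the nuclear receptor RARα, and BATF is an AP-1 family transcription factor. The treatment labels name a different interleukin for each list (IL-7, IL-8, IL-9 and IL-10) in place of IL-2. The study's methods give C57BL/6 and dLck-Cre mice as its WT strains without saying which served here, and the labels give no age. Each list came from 1 pool of 2 alignment files, and the same normal rabbit IgG file, whose RA treatment the labels do not state, served all 4 lists. Depth was 22655611 and 22475060 fragments in the RARα pools (control and RA) and 23110180 and 16424269 in the BATF pools. The BATF pool with RA thus had 71.1% of the fragments of its control, while the RARα pool with RA had 99.2%. It is not stated whether the files of a pool are separate samples or repeated sequencing of 1 sample. The pooled lists carry no replicate error, so differences between conditions are described without a test.

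STAT proteins (signal transducers and activators of transcription) wait in the cytoplasm until a cytokine receptor is engaged. JAK kinases bound to the receptor then phosphorylate them, and the STATs pair up, enter the nucleus and bind DNA. In CD8 T cells STAT5A and STAT5B act downstream of IL-2, IL-7 and IL-15. STAT4 acts downstream of IL-12, STAT3 of IL-6, IL-10 and IL-21, STAT6 of IL-4, and STAT2 of type I interferon.

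All 6 genes had at least 1 BATF control peak, where 46.2% of the protein-coding genes in the RefSeq table were named. Of the 6 genes, 4 had a BATF peak with RA (36.4% of protein-coding genes), 2 had a RARα control peak (6.85%) and none had a RARα peak with RA (3.05%). Stat4 had 6 BATF control peaks, Stat5b had 5, Stat3 had 4, and Stat5a, Stat2 and Stat6 had 1 each. With RA the numbers were 3, 3, 2, 1, 0 and 0. Per 100 kb of gene, with peaks just outside it counted, the control numbers ran from 3.87 at Stat5a to 7.58 at Stat3. With RA they ran from 0 at Stat2 and Stat6 to 3.87 at Stat5a. Among all protein-coding genes with a BATF control peak, 9.65% had 5 or more.

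Fold enrichment is the pileup of fragments at the summit, plus 1, over the local IgG level plus 1. For the 18 BATF control peaks it ranged from 3.53 to 15.5 with a median of 4.75, and over the whole list the median was 5.40. The 9 BATF peaks with RA ranged from 3.57 to 10 with a median of 5.43, beside 5.29 over that list. The authors' annotation classed 10 of the 18 control peaks as promoter (58.7% over the list), 5 as intron (20.1%), 2 as exon (3.04%) and 1 as intergenic (18.1%). The detailed entries of the exon peaks, at Stat4 and Stat5b, name introns. With RA, 5 of the 9 peaks were classed as promoter (64.6%) and 4 as intron (17.0%). All 18 control peaks lay within 10 kb of the STAT gene they named.

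**Figure D1:**
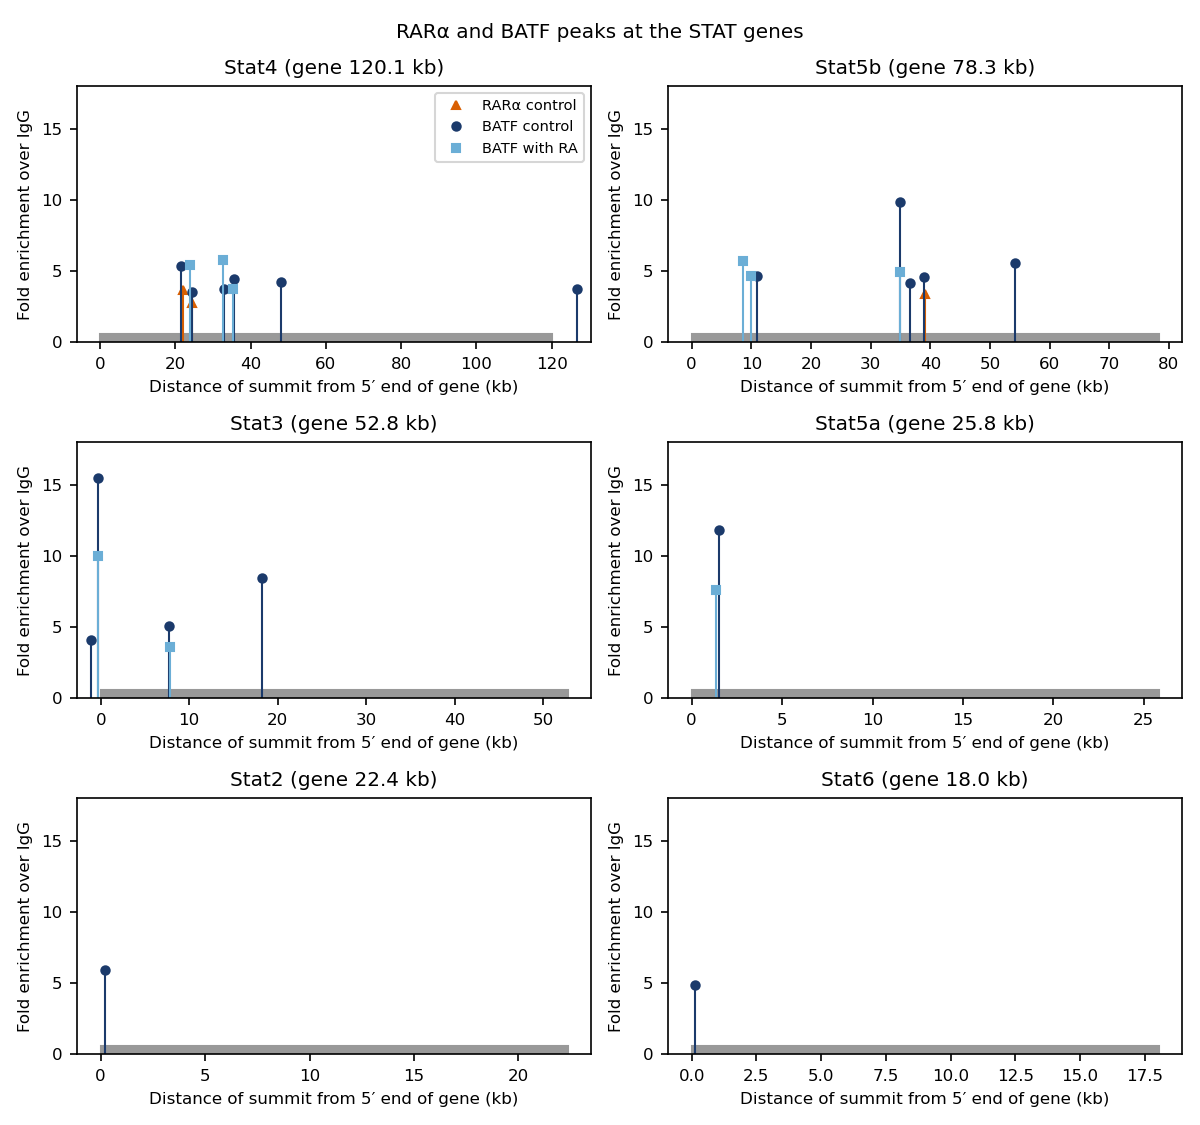
Each panel plots 1 STAT gene, with the distance of the peak summit from the 5′ end of the gene in kb on the x axis and the fold enrichment over IgG on the y axis. The grey bar is the gene. Triangles are RARα control peaks, circles BATF control peaks and squares BATF peaks with RA. The highest control circles are at Stat3 (15.5), Stat5a (11.8) and Stat5b (9.88), and RARα triangles appear at Stat4 and Stat5b only.

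Stat5b, Stat5a and Stat3 lie side by side on chromosome 11 of mm10, over 158863 bp from the start of Stat5b to the end of Stat3. Stat5b runs from 100780731 to 100859004 and is read towards lower coordinates. Stat5a, at 100859351-100885169, is read the other way, and the 5′ ends of the pair are 347 bp apart. Stat3, at 100886806-100939594, ends 1637 bp from the end of Stat5a. The annotation assigned 10 BATF control peaks and 6 BATF peaks with RA to these 3 genes.

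The strongest BATF peak of the family lay at the promoter of Stat3. In the control it ran from 100937937 to 100940313, and its summit, 318 bp upstream of the gene's 5′ end, had 93 fragments (4.02 per 1000000 fragments of the pool, a level written fpm) and a fold enrichment of 15.5. This placed it at percentile 96.5 of the BATF control list. With RA the peak ran from 100939050 to 100940424 and had 45 fragments (2.74 fpm) and a fold of 10. The summits of the peaks were 4 bp apart, while the fpm level with RA was 0.681 of the control level.

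Stat3 had 3 further BATF control peaks. A peak in intron 1, at 100931587-100932142, had 30 fragments and a fold of 5.10 in the control. It overlapped a peak with RA, at 100931622-100932007, with 18 fragments and a fold of 3.57. A second intronic peak, at 100921334-100921669 and centred in a LINE repeat, had 32 fragments and a fold of 8.44, and its nearest peak with RA was 9953 bp away. The third, a promoter peak at 100940649-100940920, lay upstream of the gene with 15 fragments and a fold of 4.09. Stat3 had no RARα peak in either list. Its nearest RARα control peak was the one in Stat5b, 66964 bp away.

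Stat5a had a single BATF peak in each condition, at the promoter and reaching into intron 1. The control peak ran from 100859904 to 100861840 with 45 fragments (1.95 fpm) and a fold of 11.8, at percentile 92.8 of its list. The peak with RA, at 100860351-100861018, had 22 fragments (1.34 fpm) and a fold of 7.60. Over the control peak the IgG level was 0.981 of the genome background, which was computed here from pool depth, fragment size and genome size. The Stat3 control peaks at 100921334-100921669 and 100940649-100940920 had the same ratio, so it was not particular to Stat5a. No BATF control peak at a STAT gene had a lower one. No BATF control peak was called in the 59494 bp between this peak and the intronic peaks of Stat3.

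Stat5b carried all its BATF peaks inside the gene. The annotation assigned 3 control peaks to the promoter of a transcript that begins inside the gene, with summits 34939, 36644 and 38907 bp from the 5′ end of the gene. The first, at 100823593-100824885, was the strongest, with 49 fragments (2.12 fpm) and a fold of 9.88. The overlapping peak with RA, at 100823645-100824198, had 18 fragments (1.10 fpm) and a fold of 4.90. The summits lay 7 bp apart, and the fpm level with RA was 0.517 of the control level, the lowest ratio among the overlapping STAT pairs.

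The other peaks in this stretch of Stat5b were weaker. The control peak at 100822138-100822986 had 24 fragments and a fold of 4.12, and that at 100819358-100820218 had 19 fragments and a fold of 4.56. Neither overlapped a peak with RA. A control peak classed as exon, with intron 3 in its detailed entry, at 100804702-100804973, had 25 fragments and a fold of 5.59, and the nearest peak with RA was 18672 bp away.

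A broad BATF control peak of 1941 bp, at 100847847-100849787, had 32 fragments (1.38 fpm) and a fold of 4.66. The annotation classed it as promoter of the longer transcript, while its detailed entry names intron 1 of 18 of that transcript. Its summit lay 10940 bp inside the gene. With RA, 2 narrow peaks were called there, with summits 9869 and 8674 bp inside the gene. One, at 100849025-100849261, lay inside the control peak and had 13 fragments (0.792 fpm) and a fold of 4.63. The other, at 100850182-100850542, had 17 fragments and a fold of 5.69 and began 395 bp beyond the control peak. It was the only STAT peak with RA that no control peak overlapped.

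Stat4 lies on chromosome 1 at 51987106-52107189 and is read towards higher coordinates. Of its 6 BATF control peaks, 5 lay inside the gene, with summits from 21585 to 48152 bp from the 5′ end, and 1 lay 6448 bp beyond the end of the gene. The annotation calls the peak at 52008318-52009146 a promoter peak, while its detailed entry places it in intron 1 of 23 of the same transcript. This peak had 26 fragments (1.13 fpm) and a fold of 5.34, the highest at Stat4 in the control, and its nearest peak with RA was 1655 bp away. The next, at 52010746-52011890, was classed as exon, with intron 1 in its detailed entry, and had 24 fragments (1.04 fpm) and a fold of 3.53. It overlapped a peak with RA at 52010801-52011232 with 18 fragments (1.10 fpm) and a fold of 5.43.

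In intron 3 of Stat4, BATF peaks were called at adjacent places in both conditions. The control peak at 52019390-52020145 had 37 fragments (1.60 fpm) and a fold of 3.75. The peak with RA inside it, at 52019655-52020094, had 28 fragments (1.70 fpm) and a fold of 5.80. A second control peak, at 52022195-52022694, had 27 fragments (1.17 fpm) and a fold of 4.41. Its counterpart with RA, at 52022338-52022608, had 17 fragments (1.04 fpm) and a fold of 3.73. Stat4 was thus the only STAT gene with overlapping pairs that had a higher fold with RA, at 2 of its 3 pairs. At these 2 pairs the fpm level differed little (ratio 1.06 at each), while the IgG level set against it was 2.06 and 3.09 times the background in the control list and 1.23 and 1.97 times in the RA list. The summits of these pairs lay 555 and 136 bp apart, so the fragment and IgG levels of the 2 conditions were read at different places.

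A further control peak in intron 3, at 52034951-52035494, had 31 fragments and a fold of 4.23, and the nearest peak with RA was 12343 bp away. The intergenic peak, at 52113637-52114198, had 33 fragments and a fold of 3.73, and the nearest peak with RA was 4732 bp away.

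Stat6 and Stat2 lie on chromosome 10 and had BATF peaks at the promoter in the control only. At Stat6, which runs from 127642955 to 127660987, the peak at 127641911-127644000 had its summit 139 bp inside the gene, with 48 fragments (2.08 fpm) and a fold of 4.84. The IgG level there was 3.09 times the background, tied with a Stat4 peak as the highest at a STAT peak. The nearest peak with RA was 22921 bp away, on the far side of the gene and 5934 bp beyond it, and was assigned to Nab2, a corepressor of EGR factors, and 1700012D01Rik. That stretch also held a control peak, with a fold of 5.93.

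At Stat2, which runs from 128270498 to 128292853, the BATF control peak at 128270439-128271231 had its summit 193 bp inside the gene, with 35 fragments (1.51 fpm) and a fold of 5.93. It was also assigned to the neighbouring gene Apof (apolipoprotein F), whose 3′ UTR its detailed entry names. The nearest peak with RA was 37907 bp away.

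Across the family, 13 of 18 BATF control peaks had a peak with RA within 5 kb, the tolerance of the study's methods (72.2%, Wilson 95% confidence interval 49.1 to 87.5, for counting error only). Over the whole list 69.9% did, so the share at STAT genes was near the background. Neighbouring control peaks at Stat5b, Stat4 and Stat3 shared RA peaks, while the interval takes the peaks as independent. When at least 1 bp had to overlap, 8 of the 18 had a counterpart (44.4%, 24.6 to 66.3), beside 54.4% over the list. Conversely, all 9 BATF peaks with RA had a control peak within 5 kb (96.3% over the list), and 8 of them overlapped one (93.6%). Among the 13 peaks paired within 5 kb the fold was lower with RA in 6 (66.9% over the list) and the fpm in 7 (66.5%), but some of these pairs join different places. At the 8 overlapping pairs the fold was lower with RA in 6, beside 75.5% of such pairs over the list, and the fpm was lower in 6, beside 77.1%.

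The median ratio of RA to control, in fpm, was 0.766 at the 8 overlapping STAT pairs and 0.838 over all 8605 overlapping pairs. Pairs classed as promoter over the list had a median of 0.804 and a lower quartile of 0.685. The Stat5b pairs classed as promoter (0.517 and 0.572), both well inside the gene, were below that quartile. Those at the Stat3 promoter (0.681) and Stat5a (0.688) were close to it. The Stat5b pair at 0.572 compares summits 1071 bp apart, where the median shift over all overlapping pairs was 62 bp. The second RA peak beside it, with 1.04 fpm, does not enter that ratio. Intron pairs over the list had a median of 0.905 and quartiles of 0.772 and 1.06. The intronic Stat3 pair (0.844) and a Stat4 pair in intron 3 (0.886) were below that median, and the other Stat4 pair in intron 3 (1.06) was above it. With 1 pool per condition, these ratios have no replicate check. The peaks with RA were also shorter, with a median length of 0.485 of the control peak at STAT pairs and 0.631 over the list. Length, unlike fpm, was not scaled to depth, and the BATF pool with RA had 71.1% of the control fragments. The part of depth in the shorter lengths was not tested.

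**Figure D2:**
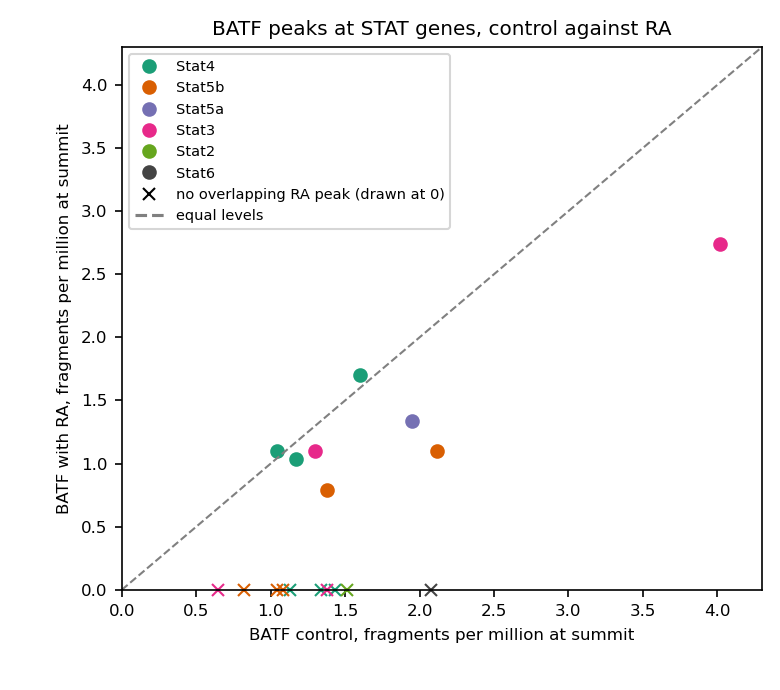
The x axis is the level of each of the 18 BATF control peaks at STAT genes and the y axis that of the overlapping peak with RA, both in fpm at the summit. Filled circles are the 8 overlapping pairs, coloured by gene, and crosses are the 10 control peaks with no overlapping RA peak, drawn at 0 because no value is listed. Stat4 pairs lie along the dashed line of equal levels, and the Stat5b, Stat5a and Stat3 pairs lie below it.

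The BATF pool with RA was shallower, so a peak with the same relative level could miss the cutoff. For each control peak the fragment count was scaled to the depth of the RA pool and set against the smallest count that passes the p-value cutoff of 1e-05 over the scaled IgG level. At 17 of the 18 peaks the scaled count passed (93.6% over the list). The exception was the weak upstream peak of Stat3, where 10.7 fragments were set against 11 needed. At Stat6 the scaled count was 34.1 against 20 needed, at Stat2 it was 24.9 against 14, and at the intronic Stat3 peak in the LINE repeat it was 22.7 against 11. At the Stat5b peak classed as exon it was 17.8 against 12, and at the Stat4 peak at 48152 bp it was 22.0 against 16. These 5 peaks had no RA peak within 5 kb. All 18 entered the list by passing the cutoff in the control, so a scaled count above the needed one is a description of the control counts, and the part of depth in the missing RA peaks was not tested. Of the 17 peaks that passed, 8 overlapped a peak with RA (57.4% of such peaks over the list) and 12 had one within 5 kb (71.6%).

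**Figure D3:**
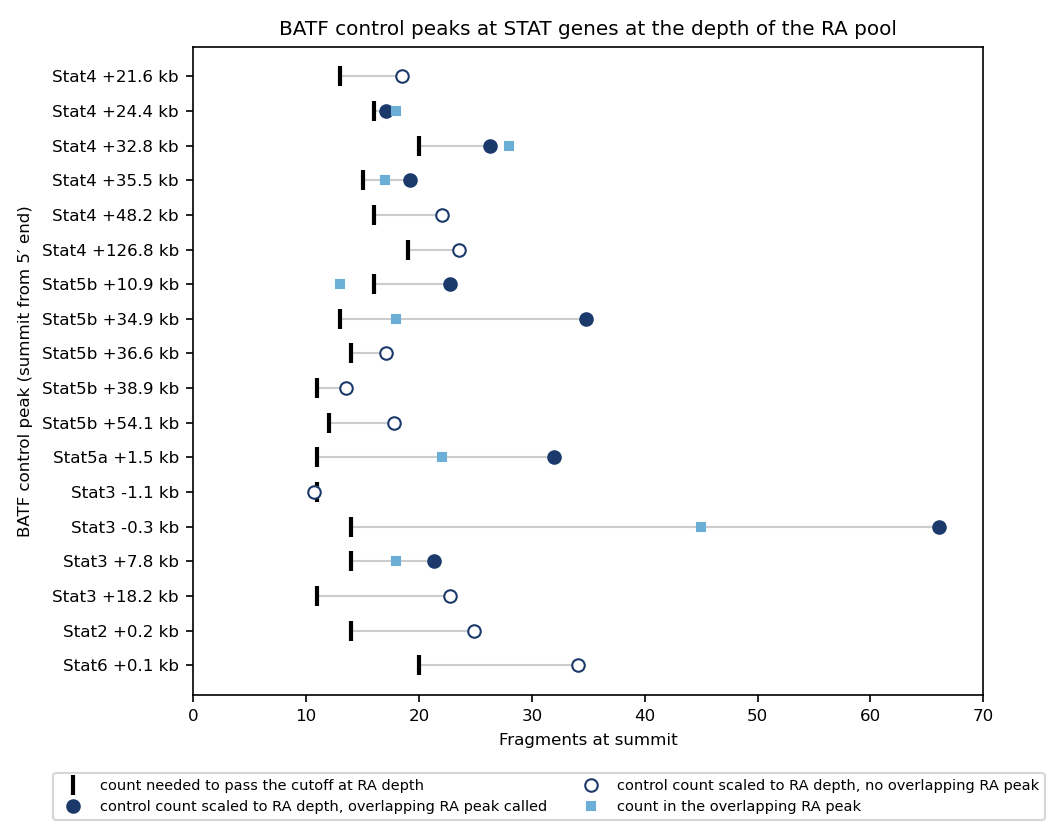
Rows are the 18 BATF control peaks at STAT genes, named by the distance of the summit from the 5′ end of the gene, and the x axis is fragments at the summit. Circles are control counts scaled to the depth of the RA pool, filled where an overlapping RA peak was called. Bars mark the count needed to pass the cutoff, and squares are the counts in the overlapping RA peaks. All circles but that of the upstream Stat3 peak (10.7) lie right of their bar. The Stat5b square at 13 fragments lies left of its bar, since the bar uses the IgG level at the control summit, 1071 bp from the RA summit.

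RARα was called at Stat4 and Stat5b, and only in the control. At Stat4 the first peak, a promoter peak by class at 52009141-52009376, had 15 fragments, a fold of 3.68 (percentile 72.6 of the RARα control list) and a -log10 p of 6.29. Its summit lay 22142 bp inside the gene, and its detailed entry places it in intron 1 of 23. The second, at 52011399-52012073 and classed as exon, had 21 fragments and a fold of 2.77 (percentile 22.3) over an IgG level 2.44 times the background, and it was centred in a SINE repeat. The peak at Stat5b, at 100819585-100819842 in intron 1, had 14 fragments and a fold of 3.36 (percentile 64.2) with a -log10 p of 5.43. Summits of the second Stat4 peak and the Stat5b peak lay 24395 and 39183 bp from the 5′ ends of their genes. Of the 3 peaks, only the first at Stat4 had a q-value of at most 0.05, which 34.9% of the RARα control peaks had.

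Every one of these 3 RARα control peaks overlapped a BATF control peak, as did 53.4% of the whole RARα control list, where 61.9% had one within 5 kb. The overlaps differed in kind. The first Stat4 peak touched the BATF peak beside it over 6 bp, with summits 557 bp apart. The second overlapped its BATF peak over 492 bp, with summits 9 bp apart. The Stat5b peak lay wholly within the BATF peak at 100819358-100820218, with summits 276 bp apart. No overlap with the BATF list of the RA condition was found for the 3 (42.5% over the list), and the nearest of its peaks were 1425, 167 and 3803 bp away.

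No RARα peak with RA lay near a STAT gene. The nearest was 1083560 bp from Stat2, 1715426 bp from Stat6 and 1686209 bp from Stat4, and the peak nearest to Stat5b, Stat5a and Stat3 was 2322188, 2400808 and 2428263 bp away. None of the 3 RARα control peaks thus had an RA peak within 5 kb, beside 10.2% over the list that did. The RARα pools were of nearly equal depth, and their p-value cutoff was 0.001, looser than the 1e-05 of the BATF lists. The control counts scaled to the RARα pool with RA were 14.9, 20.8 and 13.9 fragments, where 10, 16 and 10 were needed, and over the list 79.0% of the control peaks passed in this way. Of those, 12.2% had an RA peak within 5 kb. Here too the peaks were chosen by passing in the control, and the values are a description.

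Other genes of the JAK-STAT pathway were described for comparison, as a list of 39 that comprises kinases, inhibitors, phosphatases, cytokine receptors and Irf9, the partner of STAT2. All 39 had a BATF control peak, 36 had one with RA, 19 had a RARα control peak and 6 had one with RA, where 46.2%, 36.4%, 6.85% and 3.05% of protein-coding genes were named. The list was drawn up with earlier results of these data known, and several of its genes are neighbours that share peaks. The number of BATF peaks was lower with RA at 28 genes, equal at 10 and higher at 1, Pias1, which encodes a STAT inhibitor. Over all protein-coding genes with a BATF control peak, 55.5% had fewer with RA. Among those with 2 or more control peaks the number was lower at 26 of 32 pathway genes and 3 of 3 STAT genes, beside 76.8% of all such genes. Within 10 kb of the gene, a BATF control peak was assigned to 38 of the 39 pathway genes (39.4% of protein-coding genes) and a BATF peak with RA to 30 (29.9%). A RARα control peak was assigned to 10 (3.16%) and a RARα peak with RA to 2 (1.23%).

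The highest BATF control folds of the list were at peaks assigned to cytokine receptor genes. An intergenic peak on chromosome 16 at 91366306-91367427, assigned to Ifnar2 and Il10rb, had a fold of 52.4 in the control and 52.9 with RA. It lay 5356 bp from Ifnar2 and 38730 bp from Il10rb. An intergenic peak on chromosome 2 at 11616567-11617501, upstream of Il2ra, the IL-2 receptor α chain, and also assigned to Il15ra, had 27.2 and 26.3. Its distances were 25291 bp from Il2ra and 87671 bp from Il15ra. The strongest BATF peaks at STAT genes had folds of 15.5 (Stat3) and 11.8 (Stat5a) in the control, and 10 and 7.60 with RA. All 4 JAK genes had BATF peaks in both conditions, and the numbers in the control and RA lists were 14 and 4 at Jak1, 4 and 1 at Tyk2, and 2 and 2 at both Jak2 and Jak3.

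Of the 19 genes with a RARα control peak, 11 encode receptors (Il2ra, Il2rb, Il4ra, Il10rb, Il12rb2, Il15ra, Il21r, Ifngr1, Ifngr2, Ifnar1 and Ifnar2), 3 encode JAKs (Jak1, Jak2 and Tyk2), 3 SOCS proteins (Socs1, Socs6 and Cish) and 2 phosphatases (Ptpn2 and Ptpn6). The highest RARα fold was 10.1, at a peak on chromosome 7 at 125511198-125512027 that lay 40244 bp from Il4ra and 91225 bp from Il21r. The next, 9.73, was at a peak on chromosome 16 at 91533087-91534413, assigned to Ifnar1 and Ifngr2. The 6 genes with a RARα peak with RA were Socs5, Socs6, Il2rb, Il4ra, Il21r and Ifngr1.

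**Figure D4:**
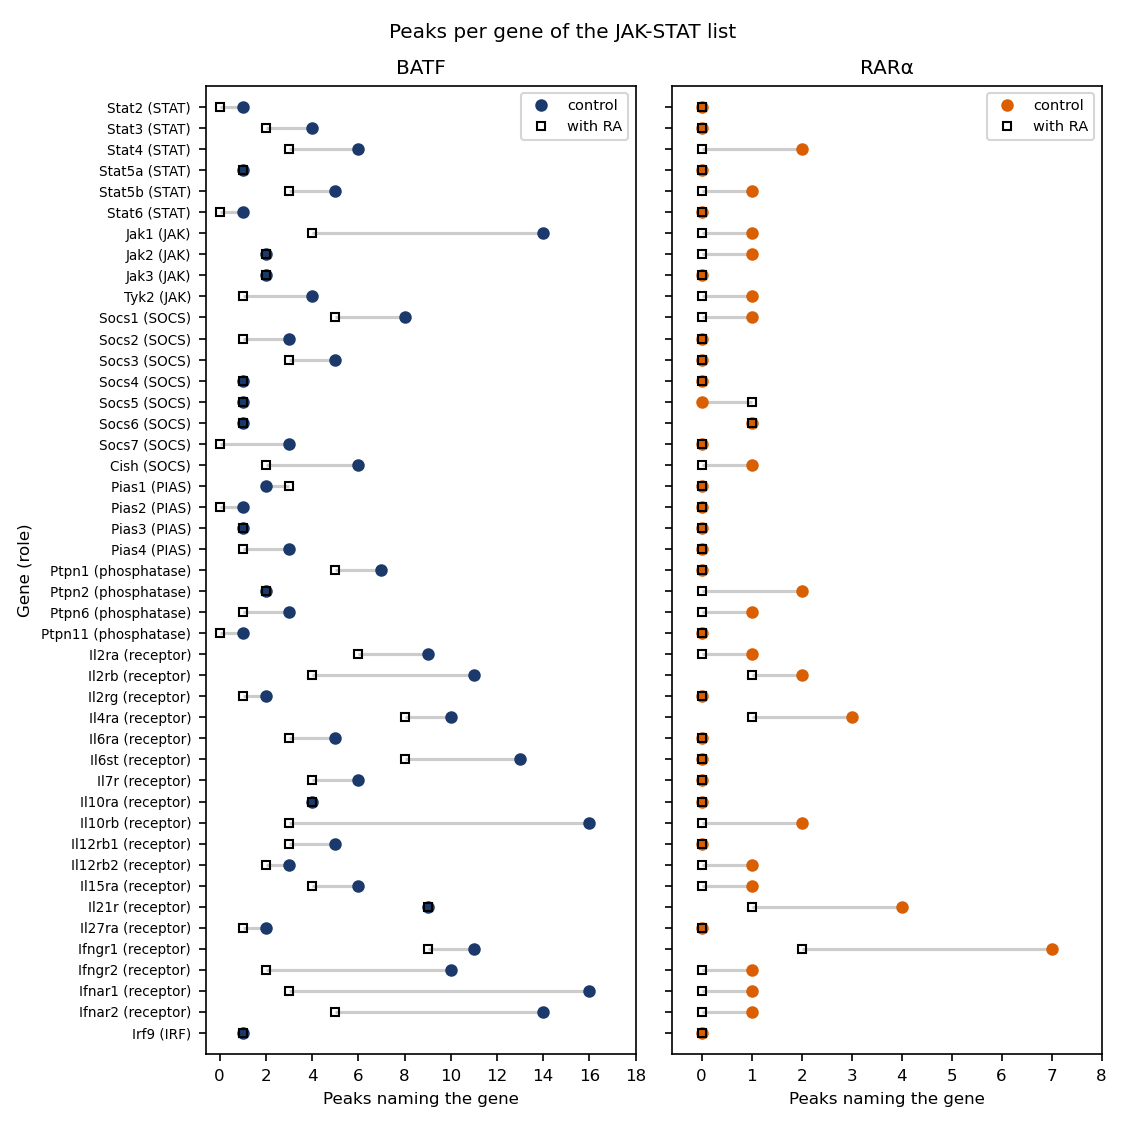
Rows are the 6 STAT genes and the 39 other JAK-STAT genes with their role, and the x axis is the number of peaks that name the gene, for BATF on the left and RARα on the right. Filled circles are control and open squares are with RA. Stat4 goes from 6 to 3 BATF peaks and from 2 to 0 RARα peaks, and Pias1 is the only gene with more BATF peaks with RA (3 against 2).

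Stat4 had the most peaks of the family, and genes of like pattern were sought by the distance of log2(summed fold + 1) over the 4 lists among 10813 protein-coding genes that share no peak with a STAT gene. The closest were Cggbp1 (distance 0.237), Sar1b (0.271) and Fam53c (0.290). The summed folds at Stat4 were 6.45 in the RARα control list, 25 in the BATF control list and 15.0 in the BATF list with RA, and the RARα list with RA had none. Cggbp1 had 6.20, 23.1 and 12.8 in the same order. The likeness rests on 4 values per gene.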

How the data were processed

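Reads were aligned by the authors with Bowtie2, and after removal of duplicates peaks were called on mm10 with MACS 2.2.7.1 (effective genome size 1870000000), pooling 2 ChIP files per list against 1 IgG file. The p-value cutoff was 1e-05 in the BATF lists and 0.001 in the RARα lists. The pileup, as deposited, is a signal that counts fragments covering the summit. For BATF control it had been scaled to a step of 0.9875 per fragment, and dividing by the step gave whole fragments at every peak (within 0.02). The deposited fold enrichment is a ratio, and the IgG level was recovered from it and the pileup. The deposited p-value and q-value are on the -log10 scale. The p-values were recomputed from pileup and IgG level as Poisson tails, with a median difference of at most 0.0011 on that scale, and this rule gave the count needed at another depth. That count ignores the least peak length the caller asks for.

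Peaks were taken by gene symbol, and gene positions came from a RefSeq table of GRCm38.p6, which matched all 6 STAT and 39 pathway genes. Strand was read from the order of introns and promoters in the annotation. Genes named were the STAT genes, genes sharing their peaks (those at the intergenic Stat4 peak are not reported here), the pathway genes with a RARα peak or 1 of the 3 highest folds in a control list, and the 3 genes closest in pattern to the STAT gene with most peaks. Single pathway genes outside this rule were named after their values were seen. Members, lists and alternatives were chosen with earlier results of these data known, and the depth scaling after the peaks were seen. Overlap steps were tested on simulated data. Software was Python 3.11.15, matplotlib 3.10.9, scipy 1.17.1, pandas 2.3.3 and numpy 2.4.6. Sequence under the peaks was not analysed here.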

Additional observations from a re-analysis of the deposited data

How the results depend on the processing

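Of 45 values recomputed under an alternative, 35 stayed within the 95% interval of the share or within 1.5 times the count, and 10 moved. A q-value of at most 0.05 left 1 RARα control peak at STAT genes. A fold of at least 5 left 0 RARα control, 8 BATF control and 5 BATF peaks with RA. With that limit on both lists, 37.5% of the BATF control peaks had a counterpart within 5 kb, as did 60.0% of those with RA. Requiring an overlap of 1 bp took the BATF control share from 72.2% to 44.4%. It also took the share of pairs with a lower fold in the RA list from 46.2% to 75%, because 5 of the 13 pairs within 5 kb join peaks that do not overlap. Limiting genes to 10 kb left 10 pathway genes with a RARα control peak and 2 with RA. The peaks whose scaled count passes the cutoff and the set without the intergenic Stat4 peak were alternatives chosen after seeing the data, and each gave 70.6%. No paired analysis was possible because each condition has a single pooled list. The planned motif search was not run. Pools of 1 per condition and summits of 13 to 93 fragments limit every comparison of levels.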
